A study of Mus musculus with 4 samples.

Results

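Gip, Cck, Sst, Gcg, Ghrl, Sct, Nts and Pyy encode peptide hormones released by endocrine cells of the gut lining. All 8 were found by symbol among the 31053 genes of single-cell RNA libraries from mouse duodenal crypts, and their unique molecular identifiers (UMIs, each counting 1 captured transcript) were summed by library over the cells that the authors kept and named. WT mice carried Atoh1CreER-T2 and R26RTom. The labels give APC-KO mice as Atoh1Cre;Apcfl/fl;R26RTom, whereas the series text names the inducible Cre for both genotypes. Apc restrains Wnt signalling, and because secretory cells are those that use Atoh1, its Cre was aimed at them and not at the whole epithelium. Both genotypes received tamoxifen by intraperitoneal injection in 2 doses of 1 mg/mL given 24 h apart, and TOM+ cells (those in which the red reporter had been switched on) were sorted 12 h after the second dose, with dead cells removed. Each genotype had 2 libraries. The labels give no animal, age, sex or batch for a library, so p-values measure only the spread between these libraries.

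Endocrine cells are scattered secretory cells that sense the gut content and release hormones into the tissue beneath. They arise from secretory progenitors through a short stage marked by Neurog3. Enterochromaffin cells make serotonin with the enzyme Tph1, and the others are classed by their peptide: GIP in K cells, cholecystokinin in I cells, somatostatin in D cells, proglucagon peptides and peptide YY in L cells, ghrelin in X cells, secretin in S cells and neurotensin in N cells. Single cells are known to make several of these peptides.

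The authors kept 15234 cells, and 2278 of them carried 1 of 3 endocrine names, EC (1013 cells), NON-EC (723) and EEC-PRE (542). The names are used as deposited. A level is given in CPM, a gene's UMIs per 1000000 UMIs of the cells summed. Reads came from the 3′ ends, so levels carry no correction for gene length. Values for the libraries are given in the order WT replicate 1, WT replicate 2, APC-KO replicate 1 and APC-KO replicate 2. NON-EC cells numbered 305, 188, 13 and 217, EC cells 387, 270, 45 and 311, and EEC-PRE cells 200, 130, 15 and 197. APC-KO replicate 1 stood apart before any gene was read: it held 356 kept cells against 3821 to 6243 in the others, 5.15% of its UMIs lay in kept cells against 37.6% to 50.3%, and its endocrine cells had a median of 6488 UMIs against 2463 to 3571. Pairs of libraries shared between 1 and 8 cell barcodes. Apc stood at 87.2, 77.9, 88.1 and 88.1 CPM over all kept cells. Counts from the 3′ end of a transcript need not change when an internal part of a gene is deleted, so these values are no check of the deletion or of the group names.

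The names were checked on marker genes. Tph1 stood at 2089, 1866, 1724 and 1408 CPM in EC and at 40.7, 2.91, 14.3 and 9.51 in NON-EC. Neurog3 stood at 1915, 1631, 2170 and 1275 in EEC-PRE and at 508 to 677 in EC. NON-EC held Cpe, a peptide-trimming carboxypeptidase, at 846, 850, 999.6 and 778 CPM, against 6.73 to 14.4 in EEC-PRE. In each library Tph1 thus set EC apart from NON-EC, and Neurog3 and Cpe set EEC-PRE apart from EC and NON-EC respectively. The authors named the cells from the expression of these same cells, so every difference between types below is a description and carries no test.

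On GRCm38 the genes lie at chr11:96024545-96030831 (Gip, plus strand), chr9:121489824-121495694 (Cck), chr16:23889573-23890958 (Sst), chr2:62474530-62483650 (Gcg), chr6:113716119-113719880 (Ghrl), chr7:141278330-141279133 (Sct), chr10:102481756-102490486 (Nts) and chr11:102106676-102107832 (Pyy), the last 7 on the minus strand. Promoter sequence is shown for 4 of the genes. Cck, Gcg and Sct were found together in single cells. Sst is shown beside them, though its positive cells were too few to tell whether it avoids Cck or Gcg. Gip, which was also found with Sct, had no match to the motifs below and is not shown. Each line holds the 250 bases before the RefSeq transcription start (GRCm38.p6), read 5′ to 3′ on the gene's strand. Capitals mark 3 motifs searched on both strands, TATAAA (the TATA box), TGACGTCA (the cAMP response element) and CAGATG (an E-box). The Cck window is chr9:121495695-121495944, the Gcg window chr2:62483654-62483903, the Sct window chr7:141279134-141279383 and the Sst window chr16:23890845-23891094, all on the minus strand.
Cck: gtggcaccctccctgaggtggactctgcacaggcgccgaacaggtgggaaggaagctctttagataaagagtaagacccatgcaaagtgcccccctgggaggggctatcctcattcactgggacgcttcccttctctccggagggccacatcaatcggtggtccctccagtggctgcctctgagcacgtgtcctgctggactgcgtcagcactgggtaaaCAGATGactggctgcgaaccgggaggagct
Gcg: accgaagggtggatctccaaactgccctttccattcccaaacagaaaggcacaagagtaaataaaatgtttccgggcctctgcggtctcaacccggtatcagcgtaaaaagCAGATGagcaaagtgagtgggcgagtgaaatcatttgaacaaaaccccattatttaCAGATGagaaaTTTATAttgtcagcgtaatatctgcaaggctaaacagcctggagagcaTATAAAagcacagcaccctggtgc
Sct: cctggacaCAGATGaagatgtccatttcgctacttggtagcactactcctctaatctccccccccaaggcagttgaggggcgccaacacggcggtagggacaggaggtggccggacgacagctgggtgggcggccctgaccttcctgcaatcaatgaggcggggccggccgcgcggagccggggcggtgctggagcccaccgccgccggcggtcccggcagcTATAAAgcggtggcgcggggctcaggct
Sst: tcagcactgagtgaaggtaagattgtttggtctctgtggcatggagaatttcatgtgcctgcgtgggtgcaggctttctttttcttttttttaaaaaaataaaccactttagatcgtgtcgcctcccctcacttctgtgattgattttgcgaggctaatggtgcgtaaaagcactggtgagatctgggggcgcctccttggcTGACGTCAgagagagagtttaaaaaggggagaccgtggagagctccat
Gcg held TATAAA or its complement starting 72 and 24 bases before the start and CAGATG at 139 and 83. Sct held TATAAA at 28 and CAGATG at 242, Cck held CAGATG at 30, and Sst held TGACGTCA at 48. No match was found in the windows of Gip, Ghrl, Nts and Pyy. Among 32851 mouse promoter windows of this length, 12.4% held TATAAA, 14.4% CAGATG and 1.55% TGACGTCA, and a match is a stretch of letters, not a measured binding site.

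NON-EC cells held most UMIs of 5 of the hormones: Gip, Cck, Sst, Gcg and Ghrl. Secretin was divided differently, with the largest share in EC. Neurotensin and peptide YY were nearly absent from these duodenal crypt cells. Over the 8 genes together, hormone UMIs made up 3.43%, 2.53%, 4.27% and 2.99% of all UMIs in NON-EC, 0.446%, 0.41%, 0.423% and 0.436% in EC, and 0.0232%, 0.0193%, 0.0303% and 0.0266% in EEC-PRE.

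Ghrl (ghrelin, the appetite-raising hormone) stood at 18808, 11963, 3285 and 17760 CPM in NON-EC. It stood at 9.11 to 22.0 in EC and 8.41 to 31.0 in EEC-PRE. NON-EC held 97.2% (exact Clopper-Pearson 95% interval 97.0 to 97.4, which like all intervals here covers counting error only), 98.4% (98.1 to 98.7), 88.1% (83.6 to 91.8) and 95.7% (95.3 to 96.0) of all Ghrl UMIs of the kept cells. The level in APC-KO replicate 1 lay well below that of the other 3 libraries.

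Cck (cholecystokinin, which acts on the gallbladder and pancreas) stood at 5888, 5975, 7626 and 3789 CPM in NON-EC, which held 92.7% (92.1 to 93.3), 96.0% (95.4 to 96.6), 87.97% (85.1 to 90.5) and 82.8% (81.3 to 84.1) of its UMIs. By mean level EEC-PRE came next with 105, 52.2, 193 and 170 CPM, and EC with 64.7, 37.4, 139 and 74.0. These neighbours in the order overlapped, and both lay far above the goblet cells named GOBLET, where Cck stood at 2.12 to 9.79. Intestinal stem cells held Cck at 71.8, 18.4, 0 and 19.0, which was above EC in WT replicate 1. There, 1 such cell held 198 of the 246 UMIs. Barcodes holding free RNA (described below) held Cck at 128, 122, 92.4 and 60.3, a level that overlapped with those of EEC-PRE and EC.

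Gip (glucose-dependent insulinotropic polypeptide, an incretin) stood at 5420, 3855, 4998 and 4910 CPM in NON-EC and at no more than 6.995 in EEC-PRE and 3.19 in EC. NON-EC held 98.4% (98.0 to 98.7), 98.7% (98.2 to 99.1), 99.4% (98.0 to 99.9) and 92.6% (91.7 to 93.5) of its UMIs. Gcg, the precursor gene of glucagon and the glucagon-like peptides, stood at 788, 683, 899.7 and 507 CPM in NON-EC, with 1 UMI in all EC cells and 0 in all EEC-PRE cells. NON-EC held 90.6% (88.6 to 92.4), 99.6% (98.5 to 99.9), 100% (94.3 to 100) and 97.9% (95.6 to 99.1) of its UMIs. Both genes were thus found in 1 endocrine type, and the 4 libraries of NON-EC lay above every other type.

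Sst (somatostatin, an inhibitor of other hormones' release) stood at 637, 1425, 23177 and 1584 CPM in NON-EC. NON-EC held 71.8% (68.8 to 74.7), 97.7% (96.6 to 98.5), 99.4% (98.9 to 99.7) and 86.6% (84.5 to 88.5) of its UMIs. The low share in WT replicate 1 rested on single cells outside NON-EC: 1 EC cell held all 135 EC UMIs of that library. The highest level was that of APC-KO replicate 1, far above the other 3 libraries.

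Sct (secretin, which raises bicarbonate secretion) stood at 4267, 4038, 4062 and 4188 CPM in EC, a mean of 4139 ± 108 (SD, n = 4). In NON-EC it stood at 2705, 1319, 2728 and 1262, a mean of 2003 ± 824 (SD, n = 4), and no library of NON-EC reached the lowest EC value. EC held 48.1% (47.2 to 49.1), 55.8% (54.6 to 57.0), 71.5% (69.2 to 73.8) and 55.0% (53.8 to 56.2) of its UMIs, and NON-EC 25.7%, 13.4%, 12.3% and 11.9%. The EC level thus varied little among the libraries. In EEC-PRE it stood at 90.2, 110, 101 and 71.7 CPM, against 180, 164, 97.9 and 143 in GOBLET cells. It was thus below the goblet level in 3 libraries and close to it in APC-KO replicate 1. It was above the level of intestinal stem cells (ISC, 13.2 to 36.8) and enterocyte progenitors (ENTERO-PRO, 13.0 to 44.6) in every library. The reading thus depended on the type used as background, and Sct above background was not established in EEC-PRE.

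That background was looked at in 2 ways. Barcodes with 1 to 50 UMIs, taken as free RNA, held Sct at 279, 229, 192 and 137 CPM and Ghrl at 370, 240, 218 and 166, so Sct made up 43.0%, 48.8%, 46.9% and 45.3% of the UMIs of this pair. In GOBLET-PRE cells Sct made up 90.3%, 94.6%, 92.5% and 92.3% of it. The low Sct count of the goblet lineage thus did not have the proportions of the free RNA, and its source was not tested. The other hormones stood at or below 16.7 CPM in GOBLET and GOBLET-PRE cells.

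Nts (neurotensin) had 8, 17, 0 and 1 UMIs in all kept cells, and the 17 came from 1 cell. Pyy (peptide YY, a brake on gut movement) had 38, 32, 2 and 114 UMIs. In APC-KO replicate 2, 2 EC cells held 36 and 24 of the 114, and both cells also held Sct. With so few UMIs, the placement of these genes among the types rests on single cells.

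**Figure D1:**
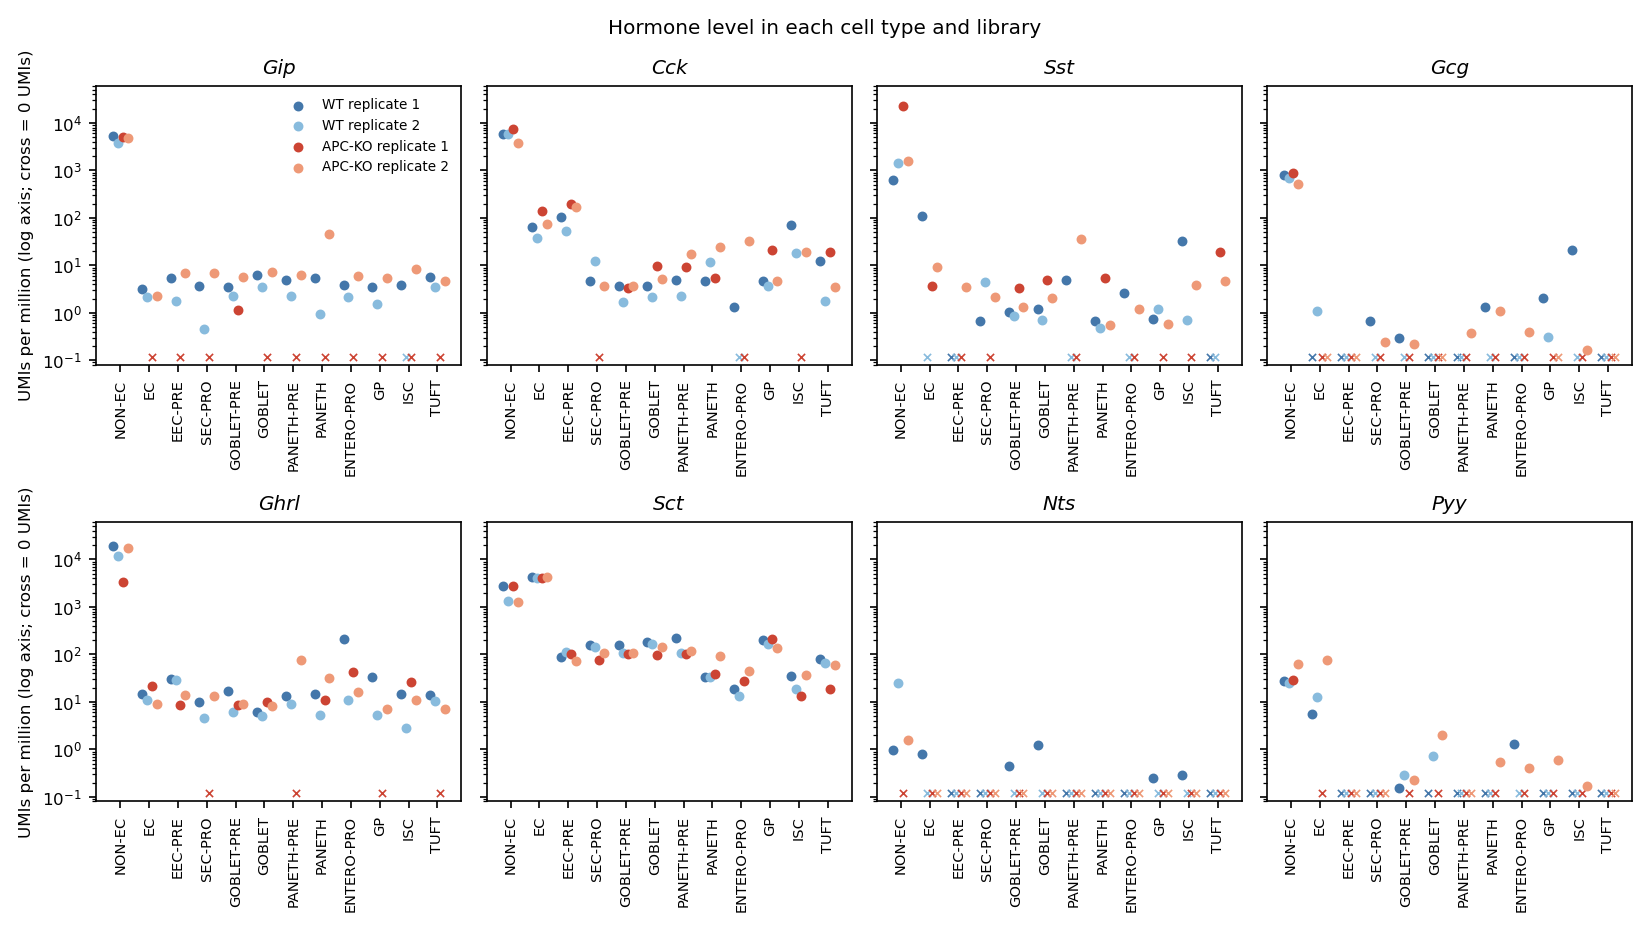
Level of each hormone gene in the 12 cell types, in CPM on a log axis, with 1 point per library and a cross where a library had 0 UMIs. Gip, Cck, Gcg and Ghrl stand highest in NON-EC in every library and Sct in EC (4038 to 4267), while Nts and Pyy stay under 100 everywhere.

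Hormone transcripts were concentrated in few cells. In the WT libraries 8 and 4 cells held 50% of all Gip UMIs, 3 and 2 cells those of Sst, 5 and 2 cells those of Gcg, 17 and 9 those of Cck, 27 and 13 those of Ghrl, and 79 and 54 those of Sct. In APC-KO replicate 2 these numbers were 5, 3, 3, 15, 11 and 28. APC-KO replicate 1 rested on 1 cell for Gip (349 of 352 UMIs), 1 cell for Gcg (all 63) and 2 cells for Sst (832 and 559 of 1633). In sums over cells, fewer cells of a kind and less RNA per cell cannot be told apart. At the far end, the NON-EC cell with the largest hormone share devoted 16.5%, 16.2%, 13.1% and 51.6% of its UMIs to these genes. The last of these lay in APC-KO replicate 2, whose top Ghrl cells held 1858 and 1852 UMIs. In each WT library an EC cell had a larger hormone share than any NON-EC cell. In each APC-KO library no EC cell did.

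To compare cells of unequal depth, each cell was thinned to 2000 UMIs, and a cell with 5 or more UMIs of a hormone was called positive for it. NON-EC kept 279 of 305, 180 of 188, 13 of 13 and 172 of 217 cells. Among 715 GOBLET and 3752 GOBLET-PRE cells treated alike, 0 were positive for Gip, Cck, Sst, Gcg, Nts or Pyy, 1 for Ghrl and 5 for Sct. Of the NON-EC cells, 42.7%, 42.2%, 38.5% and 49.4% were positive for 1 hormone, 34.4% (28.8 to 40.3), 21.1% (15.4 to 27.8), 38.5% (13.9 to 68.4) and 18.0% (12.6 to 24.6) for at least 2, and 22.9%, 36.7%, 23.1% and 32.6% for none. No doublet caller was run, and the part of doublets in these shares was not tested. Before thinning, cells with at least 2 hormones had a median of 3364.5, 3650.5, 6287 and 2657 UMIs, against 3445, 3613, 5661 and 2656 in cells with 1.

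Each NON-EC cell was then placed by its leading hormone, the one with most UMIs in the unthinned cell if it had at least 5. Ghrl led in 126, 71, 3 and 66 cells, Cck in 51, 34, 4 and 36, Gip in 32, 15, 1 and 23, Sct in 24, 9, 1 and 8, Sst in 9, 4, 3 and 9, and Gcg in 2, 2, 0 and 2. Among cells with a leading hormone, ghrelin-led cells were the largest class in every library but APC-KO replicate 1. No hormone reached 5 UMIs in 60, 52, 1 and 73 cells, and 15, 19, 0 and 20 of these held 3 or 4 UMIs, close to the limit. A class is a range of a count and not a cell type. The median UMI number of the leading hormone in the WT libraries was 123 and 97 in Gip-led, 94 and 65 in Ghrl-led, 77 and 74.5 in Cck-led and 13 and 8 in Sct-led cells. Sct-led cells thus held few UMIs even of their leading hormone.

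**Figure D2:**
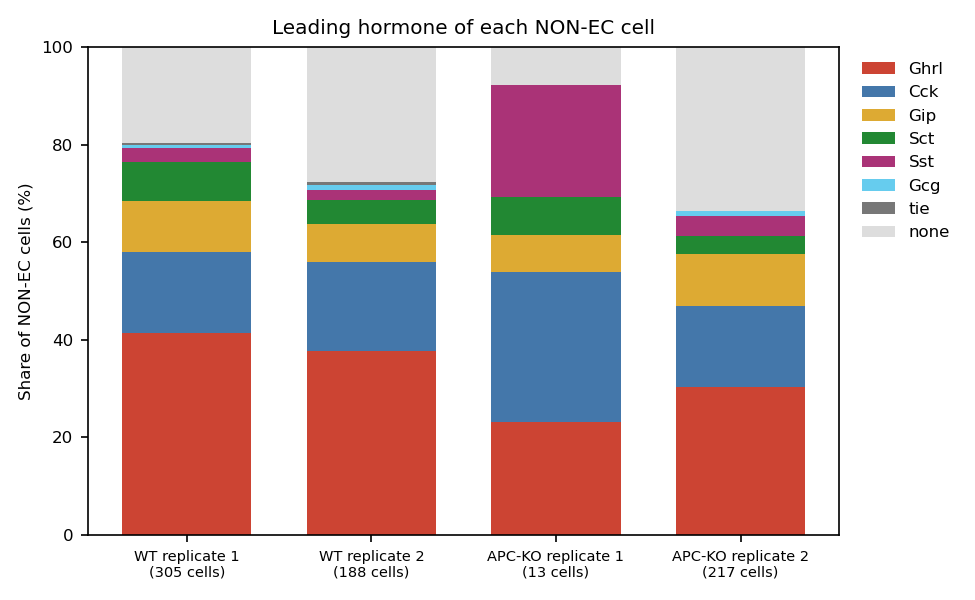
Share of NON-EC cells, in percent, led by each hormone in each library, with the number of cells under each bar. The ghrelin-led class is 41.3%, 37.8% and 30.4% of the cells in the WT libraries and APC-KO replicate 2, and the bar of APC-KO replicate 1 stands for 13 cells.

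The combinations of hormones in single cells followed a pattern that came back in both WT libraries and in APC-KO replicate 2. Gip and Ghrl were seldom found in the same cell. In WT replicate 1, 3 of 39 Gip-positive cells were positive for Ghrl (7.69%, interval 1.62 to 20.9), against 52.5% of the other cells. In WT replicate 2 it was 0 of 18 (upper limit 18.5%) against 41.4%, and in APC-KO replicate 2 it was 0 of 22 (upper limit 15.4%) against 44.0%. In these 3 libraries, most cells positive for Gip were thus not positive for Ghrl and the reverse.

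Gcg went with Cck. Of the Gcg-positive cells, 13 of 14 in WT replicate 1 (92.9%, interval 66.1 to 99.8), 9 of 9 in WT replicate 2 (66.4 to 100) and 6 of 6 in APC-KO replicate 2 (54.1 to 100) were also positive for Cck, against 23.4%, 17.0% and 18.7% of Gcg-negative cells. From the other side, 17.3%, 23.7% and 16.2% of the Cck-positive cells held Gcg, against 0.490%, 0% and 0% of Cck-negative cells. Ghrl was found in 11 of 14, 4 of 9 and 2 of 6 Gcg-positive cells (78.6%, 44.4% and 33.3%), against 44.5%, 36.8% and 38.6% of Gcg-negative cells, so it was more frequent in WT replicate 1 and near the level of the other cells in the others. Gip was found in 1, 0 and 0 Gcg-positive cells, against 14.3%, 10.5% and 13.3% of Gcg-negative cells, and with so few cells no difference can be read.

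Secretin accompanied GIP and cholecystokinin. In the WT libraries 31 of 39 Gip-positive cells (79.5%, interval 63.5 to 90.7) and 14 of 18 (77.8%, 52.4 to 93.6) were positive for Sct, against 24.6% and 11.7% of Gip-negative cells. In APC-KO replicate 2 it was 7 of 22 (31.8%, 13.9 to 54.9) against 9.33%. The intervals of WT replicate 1 and APC-KO replicate 2 did not overlap, but this sets 1 library against another and the genotypes were not tested. Of the Cck-positive cells, 47 of 75 (62.7%), 21 of 38 (55.3%) and 13 of 37 (35.1%) held Sct, against 21.1%, 8.45% and 5.93% of Cck-negative cells. Of the Ghrl-positive cells, 21 of 129 (16.3%), 5 of 67 (7.46%) and 3 of 66 (4.55%) did, fewer than the 46.0%, 24.8% and 17.0% of Ghrl-negative cells. Sct was thus more frequent beside Gip and Cck and less frequent beside Ghrl in each of these 3 libraries.

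Cck was present in 20 of 39, 7 of 18 and 7 of 22 Gip-positive cells (51.3%, 38.9% and 31.8%), against 22.9%, 19.1% and 20% of Gip-negative cells. It was present in 28 of 129, 10 of 67 and 8 of 66 Ghrl-positive cells (21.7%, 14.9% and 12.1%), against 31.3%, 24.8% and 27.4% of Ghrl-negative cells. Cck was thus more frequent beside Gip and less frequent beside Ghrl in these 3 libraries. Sst-positive cells numbered 5, 5, 3 and 5. None of them held Gip or Gcg and 1 held Cck, while 4 held Sct and 3 held Ghrl. Sct was held by 2 of 5 (40%) in each WT library, against 32.1% and 17.7% of Sst-negative cells. In APC-KO replicate 2 it was 0 of 5, against 12.6%. With 5 cells, a count of 0 allows a share of up to 52.2%, so exclusion cannot be read from a single library. APC-KO replicate 1 had between 1 and 5 positive cells for each of the hormones above, too few to place.

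Pearson's r was also taken over all 493 WT NON-EC cells, not thinned, on log2(UMIs per 10000 + 1) centred in each library. It was -0.38 for Gip with Ghrl, 0.43 for Gip with Sct, 0.25 for Gip with Cck, 0.51 for Cck with Gcg, 0.59 for Cck with Sct and -0.20 for Cck with Ghrl. The same pairs gave -0.37, 0.28, 0.16, 0.34, 0.47 and -0.28 over 217 cells of APC-KO replicate 2. All cells of a library share its depth and its free RNA, and r is given as a description with no p.

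**Figure D3:**
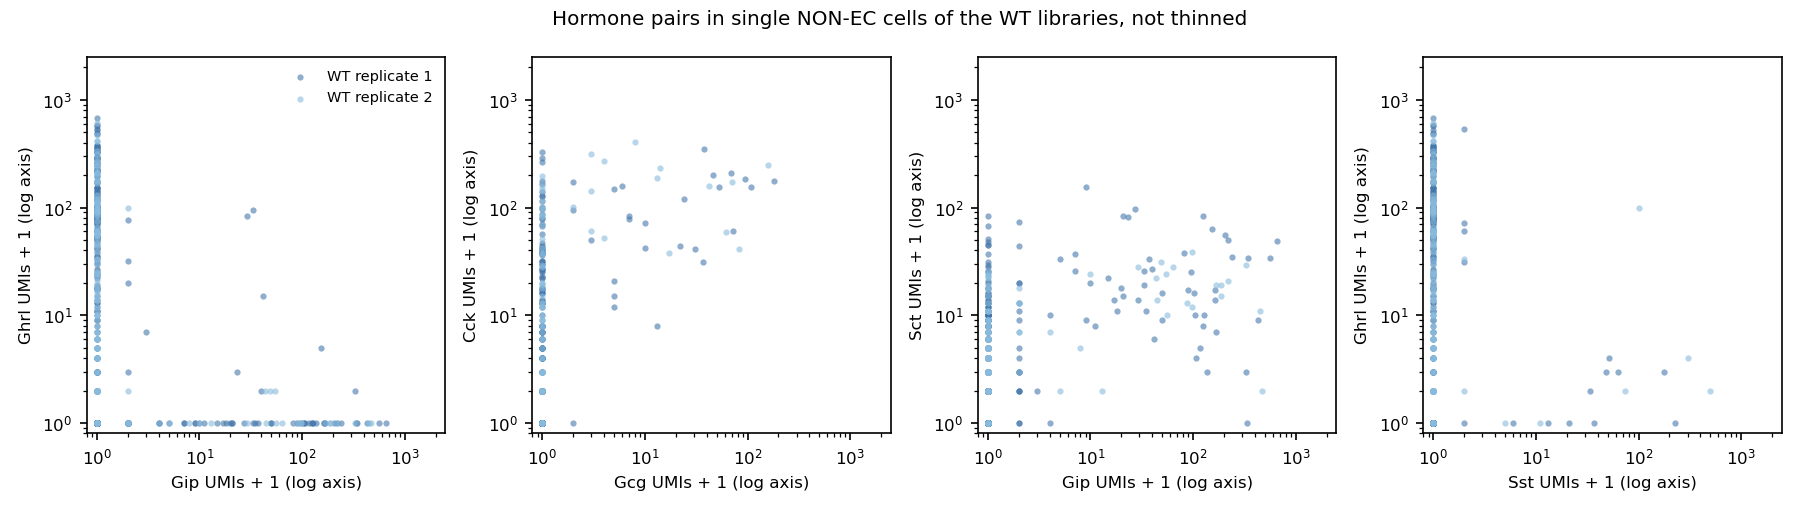
UMIs of hormone pairs in single NON-EC cells of the WT libraries, with 1 added to each value, both axes on log scales and the cells not thinned. Most cells rich in Gip lie along the axis where Ghrl is at or near 0, Gcg cells lie high in Cck, and most Gip cells hold Sct. Of the 15 WT cells with 5 or more Sst UMIs, 9 hold a Ghrl UMI and 1 holds 5 or more.

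**Figure D4:**
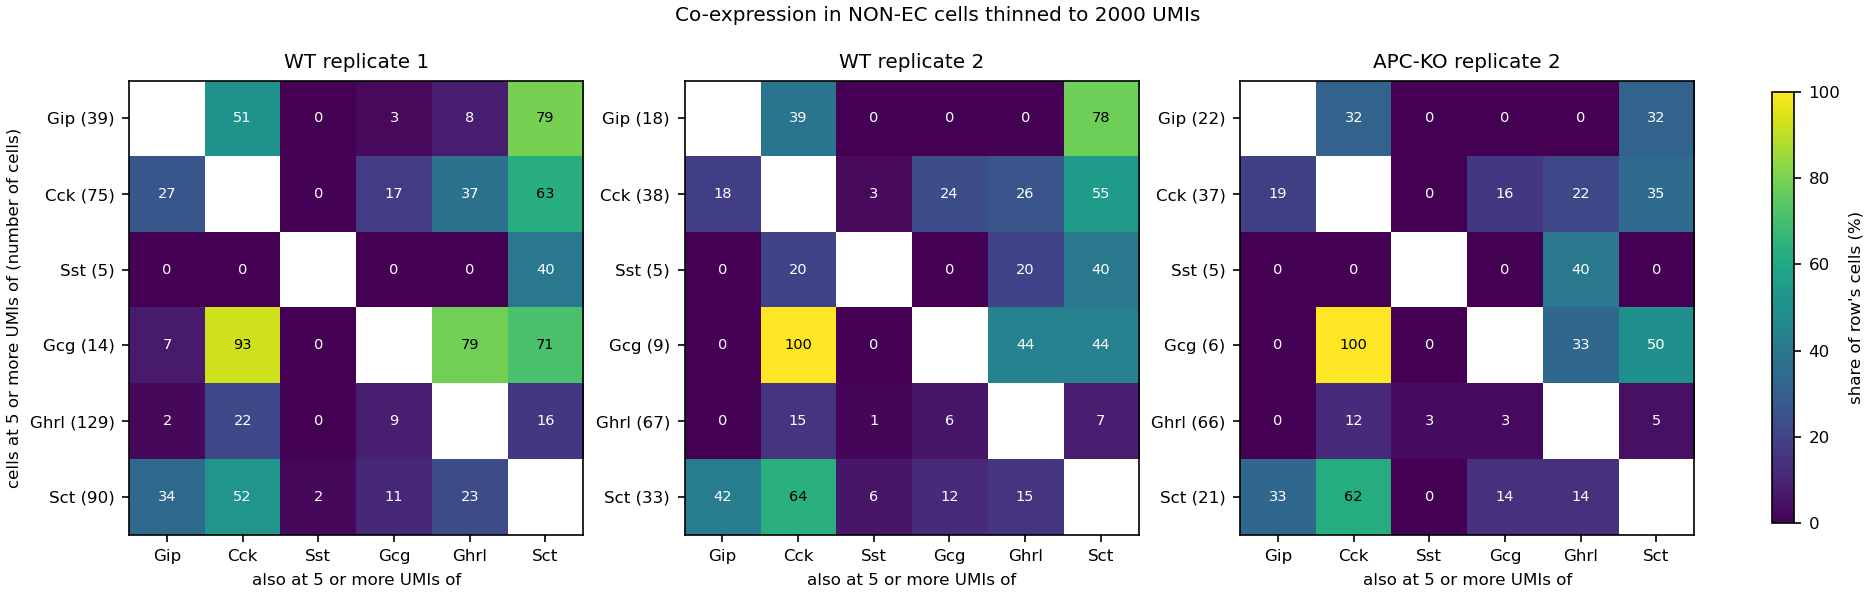
Share, in percent, of NON-EC cells positive for the hormone at the left that were also positive for the hormone below, in cells thinned to 2000 UMIs, with the number of cells in brackets. The Gcg row stands at 92.9%, 100% and 100% under Cck, and the Gip row at 7.69%, 0% and 0% under Ghrl.

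Other genes followed each hormone across the 493 WT NON-EC cells. Among 7879 genes with a UMI in at least 5% of them, Gip was followed most closely by Rbp2, a retinol-binding protein of absorptive cells (r = 0.73), then by Fabp5 (0.72) and Rbp4 (0.63), which carry fatty acids and retinol. Ghrl was followed by Maged2 (0.64), Acsl1 (0.63), which activates long-chain fatty acids, and Ceacam10 (0.57). Cck went with Ffar1 (0.59), a receptor for long-chain fatty acids, Tspan1 (0.54) and Fars2 (0.50), and Gcg with the transcription factor Etv1 (0.55), Ffar1 (0.52) and Fars2 (0.49). Sct went with the granin Chgb (0.56), Fabp5 (0.56) and Rbp2 (0.52). For Sst, Hhex (0.50) was the only one of these 7879 genes with r of at least 0.3 and a positive r in each library read. Of the WT cells, 15 held 5 or more Sst UMIs, so a gene confined to them would have missed the 5% limit. Hhex encodes a transcription factor known from somatostatin cells of the pancreas. Pyy had no gene with r of at least 0.3 (highest r 0.28). In APC-KO replicate 2 the same r were 0.63, 0.74 and 0.53 for the 3 genes of Gip, 0.61, 0.59 and 0.54 for Ghrl, 0.44, 0.42 and 0.37 for Cck, 0.54, 0.44 and 0.40 for Sct and 0.82 for Sst. For Gcg they were 0.28, 0.37 and 0.18, so Etv1 and Fars2 lay under 0.3 there.

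Rbp2 is on the list of enterocyte markers, so the other 7 genes of that list were read in the same cells. Their summed level was 1049, 1202 and 1010 CPM in Gip-led cells and 458, 361 and 472 in Ghrl-led cells, for WT replicate 1, WT replicate 2 and then APC-KO replicate 2. In Cck-led cells it was 1142, 1392 and 994, so the level of Gip-led cells was not particular to them. Rbp2 alone stood at 2167, 2280 and 835 in Gip-led and at 48.8, 53.7 and 35.9 in Ghrl-led cells. Of the 8 markers, 0, 1 and 1 were at 0 in Gip-led cells. The part of other cells' RNA in the level of Rbp2 was not tested.

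Values by class of leading hormone are given for 5 of the 23 listed transcription factors. The genes named here and in the next paragraphs come from the lists of related genes and were chosen after their values were seen. The 3 values that follow are CPM in WT replicate 1, WT replicate 2 and APC-KO replicate 2. Hhex stood at 769.8, 1411 and 651 in Sst-led cells and at 0 in Cck-, Gcg- and Ghrl-led cells. Hhex was not confined to Sst-led cells: 9.74% of the 493 WT NON-EC cells held a Hhex UMI, and Sst led in only 9 and 4 of the 493. Most WT cells with a Hhex UMI were thus Gip-led, Sct-led or without a single leading hormone. The Hhex level of those classes is not given here. Pax6, which activates hormone genes, stood at 580, 531 and 424 in Gip-led and 212, 123 and 133 in Ghrl-led cells. Etv1 stood at 261, 398 and 354 in Cck-led and 68.3, 62.5 and 37.4 in Gip-led cells, and Onecut3 at 312, 348 and 164 in Cck-led cells and 0 in Gip-led cells. Neurog3, the mark of the precursor stage, was 528, 388 and 354 in Ghrl-led cells and 162, 31.2 and 87.3 in Gip-led cells. In each contrast named here the values of the 3 libraries did not overlap between the classes. The contrasts were picked with these values known, so the lack of overlap is a description and no test.

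Of the genes that make and store peptides, 2 of the 10 on the processing list and 3 of the 4 granins are described. Mboat4, the enzyme that acylates ghrelin, stood at 272, 242 and 179 CPM in Ghrl-led cells and at 17.1, 0 and 0 in Gip-led cells. The granin Chgb stood at 18054, 16240 and 12979 in Gip-led and 21614, 20779 and 9199 in Sct-led cells but at 1507, 334 and 964 in Ghrl-led cells. Chga ran opposite, with 2060, 2391 and 2019 in Ghrl-led and 503, 249.8 and 237 in Gip-led cells. Scg2 was 472, 605 and 302 in Cck-led and 53.5, 15.4 and 215 in Ghrl-led cells. Ghrelin-led cells were thus rich in one granin and poor in another. Cpe was found in every class with a leading hormone, from 595 to 4161. Iapp, the amylin gene, stood at 77.0, 282 and 383 in Sst-led cells and at 0 in the Gip-, Cck-, Gcg-, Ghrl- and Sct-led cells. The other peptide genes Grp, Insl5, Npy, Penk, Ppy and Vip were at 0 in all classes.

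Of the 14 listed receptors, 3 are described by class and 3 more were at 0. Ffar1 stood at 239, 298 and 181 CPM in Cck-led, 154, 93.7 and 125 in Gip-led and 39.5, 19.2 and 10.3 in Ghrl-led cells. Ffar2, a receptor for short-chain fatty acids, was 367, 430 and 231 in Ghrl-led and 17.1, 46.8 and 37.4 in Gip-led cells. Cnr1, the cannabinoid receptor, was 299, 141 and 224 in Gip-led cells and 2.33, 0 and 5.13 in Ghrl-led cells. Casr, Gpr142 and Mc4r were at 0 in all classes. The Gcg-led class held 2 cells in each of these libraries, and the Sst-led class 4 to 9, so their values rest on very few cells.

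Within EC, cells were grouped by their Sct UMIs. Of thinned EC cells, 98 of 353, 70 of 258, 8 of 45 and 49 of 249 were positive for Sct, and 139, 108, 18 and 123 had 0 Sct UMIs. Tph1 averaged 7.59, 7.61, 6.63 and 7.0 UMIs per 2000 in the positive cells and 2.25, 1.90, 2.44 and 1.81 in cells with 0. Neurog3 went the other way in 3 libraries, with 0.122, 0.257 and 0.327 against 2.24, 1.77 and 1.36 in the WT libraries and APC-KO replicate 2, and with 1.00 against 1.28 in the 8 and 18 cells of APC-KO replicate 1. Pcsk1, a prohormone convertase, averaged 2.32, 2.40, 2.38 and 2.33 against 1.22, 0.843, 1.22 and 1.02. Ddc, the other enzyme of serotonin synthesis, averaged 1.73, 2.21, 2.25 and 1.69 against 1.82, 1.97, 2.17 and 1.44. In each library secretin-positive EC cells thus had more Tph1 and Pcsk1, while Ddc differed little and was lower in them in WT replicate 1. In the 116, 80, 19 and 77 EC cells with 1 to 4 Sct UMIs, Tph1 averaged 3.86, 3.45, 4.32 and 2.40. These values lay between those of the other classes in each library, so a separate subset was not shown. The top Sct cell of each library lay in EC and held 592, 731, 518 and 993 UMIs.

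Genotypes were compared over the summed UMIs of each library with edgeR's quasi-likelihood test and Benjamini-Hochberg adjustment over all genes tested. In NON-EC, 7 hormones were tested and 0 passed an adjusted p of 0.05, where 0.113% of all 7959 genes did (0.0628% higher and 0.0503% lower in APC-KO). In EC 0 of 4 passed, with 0% of 8690 genes, and in the sum of the 3 endocrine types 0 of 7, with 0% of 10533 genes. In EEC-PRE 1 of 3 passed, with 0.654% of 6573 genes (0.548% higher and 0.106% lower). Over all kept cells 0 of 7 passed, with 0% of 13345 genes. At an unadjusted p under 0.05, 2 hormones were counted in NON-EC, 2 in EC, 4 in the endocrine sum, 1 in EEC-PRE and 0 over all cells, where 8.9%, 8.39%, 8.67%, 8.81% and 3.71% of all genes tested were. DESeq2 called 0 in every comparison. It gave an adjusted p for 7, 2, 6, 0 and 7 hormones in the same order.

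Most hormone levels in NON-EC lay close together in the genotypes. The log2 fold change of APC-KO over WT was 0.14 (SE 0.316, adjusted p = 0.936 by edgeR) for Gip, -0.03 (SE 0.346, adjusted p = 0.988) for Cck, -0.11 (SE 0.281, adjusted p = 0.948) for Gcg and -0.02 (SE 0.392, adjusted p = 0.994) for Sct. For these genes the libraries of the genotypes overlapped. The standard errors, worked back from the F statistic of the test, are approximate. They leave room for differences of about the size of the spread between libraries, and a p that misses the threshold does not show equal levels.

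The differences of Sst and Ghrl in NON-EC both turned on APC-KO replicate 1. For Sst the log2 fold change in NON-EC was 3.59 (SE 0.81, adjusted p = 0.138 by edgeR), and 0.74 without APC-KO replicate 1 (adjusted p = 0.0699). With APC-KO replicate 1 kept and 1 other library left out, the call was made: 3.13 without WT replicate 1 (adjusted p = 0.000113), 4.23 without WT replicate 2 (2.31e-08) and 4.48 without APC-KO replicate 2 (7.29e-41). In the last, the lone APC-KO library was assumed to vary like the WT libraries. Without a filter on low counts the call was also made with all 4 libraries (3.47, adjusted p = 4.51e-20). The APC-KO libraries lay above both WT libraries, which 39.3% of all genes tested did in either direction. For Ghrl it was -0.46 (SE 0.564, adjusted p = 0.871), 0.30 when APC-KO replicate 1 was left out (adjusted p = 0.762) and -2.26 when APC-KO replicate 2 was (adjusted p = 7.33e-06). The direction for Ghrl therefore depended on which of these libraries was kept, and APC-KO replicate 1 had 13 NON-EC cells. Pyy in NON-EC stood at 27.5, 24.7, 28.6 and 61.8 CPM, on 29, 17, 2 and 39 UMIs, and differed by 1.21 (SE 0.348, adjusted p = 0.225). It was 1.32 without APC-KO replicate 1 (adjusted p = 0.00465) and 0.085 without APC-KO replicate 2 (adjusted p = 0.9997), so the difference rested on the latter library.

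In EC, Sct differed by 0.06 on the log2 scale (SE 0.24, adjusted p = 0.970 by edgeR), and its libraries overlapped. Cck differed by 0.93 (SE 0.353, adjusted p = 0.519), on 81, 35, 38 and 65 UMIs, and the genotypes did not overlap, as for 38.9% of the genes tested. Cck was 1.48 without APC-KO replicate 2 (adjusted p = 0.00154, a call), 0.53 without APC-KO replicate 1 (0.305) and 1.51 without WT replicate 1 (0.866). Pyy in EC differed by 2.65 (SE 0.774, adjusted p = 0.423), on 7, 12, 0 and 68 UMIs, most of the last in the 2 cells named above. It passed without APC-KO replicate 1 (3.17, adjusted p = 4.03e-08) and without a filter on low counts (adjusted p = 1.97e-08), and turned negative without APC-KO replicate 2, where 0 UMIs were left in APC-KO. In the sum of the 3 endocrine types Cck (-0.56, SE 0.221, adjusted p = 0.506) and Gcg (-0.63, SE 0.198, adjusted p = 0.395) were lower in both APC-KO libraries, which 41% of the genes tested matched in either direction. NON-EC cells were 305 of 892, 188 of 588, 13 of 73 and 217 of 725 endocrine cells, so this sum also carries the share of NON-EC cells. Gcg passed without APC-KO replicate 1 (-0.59, adjusted p = 0.0208). In the same sum Sst was 2.60 (SE 0.727, adjusted p = 0.365) with both APC-KO libraries above WT, and 0.54 without APC-KO replicate 1. It passed without APC-KO replicate 2 (3.44, adjusted p = 6.40e-28) and without a filter on low counts (adjusted p = 6.33e-22). Pyy was 1.73 (SE 0.508, adjusted p = 0.394) with overlapping libraries, and passed without APC-KO replicate 1 (2.12, adjusted p = 5.60e-14) and without the filter (adjusted p = 7.80e-07).

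In EEC-PRE, the precursor-like type, Cck was higher in APC-KO: its level was 193 and 170 CPM there and 105 and 52.2 CPM in WT, or 1.27 on the log2 scale (SE 0.295, adjusted p = 0.0389 by edgeR). The genotypes did not overlap, as for 40% of the genes tested. These were 78, 29, 23 and 97 UMIs. A single cell held 20 of the 23 in APC-KO replicate 1, and another 21 of the 97 in APC-KO replicate 2. Without the top cell of each library the levels were 96.2, 39.9, 27.3 and 133, the log2 fold change was 0.76 and the adjusted p was 0.605, so the call was lost and the genotypes overlapped. It was also lost without WT replicate 1 (1.95, adjusted p = 0.971) or WT replicate 2 (0.90, adjusted p = 0.999). Free RNA held Cck at 128, 122, 92.4 and 60.3 CPM. Of the goblet markers in EEC-PRE, 8 of 8 tested had a positive log2 fold change (median 1.34, all genes 0.00). Only Clca1 passed, and its libraries overlapped between the genotypes. The 9 genes summed to 12266, 7530, 12080 and 26135 CPM with 0, 0, 1 and 0 of them at 0. APC-KO replicate 1 thus lay between the WT libraries, and only APC-KO replicate 2 stood above them. The part of goblet markers in the Cck result was not tested.

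No gene of the endocrine lists other than Cck passed in any of these comparisons. In NON-EC 0 of 8 tested genes of prohormone processing, 0 of 4 granins, 0 of 21 transcription factors and 0 of 7 receptors passed, with median log2 fold changes of -0.04, -0.11, -0.24 and -0.35 against -0.01 over all genes tested. In EEC-PRE 0 of 15 transcription factors and 0 of 7 precursor markers passed, with medians of -0.19 and -0.35. Goblet markers in NON-EC summed to 11085, 8229, 4470 and 24613 CPM, with 7 of 8 tested positive and 0 passing.

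The share of NON-EC cells positive for a hormone was compared over libraries by exact permutation, two-sided. With 2 libraries against 2 this test cannot go below 0.33. The shares were 13.98%, 10.0%, 7.69% and 12.8% for Gip, 26.9%, 21.1%, 38.5% and 21.5% for Cck, 5.02%, 5.00%, 7.69% and 3.49% for Gcg, and 46.2%, 37.2%, 15.4% and 38.4% for Ghrl. For Sct they were 32.3%, 18.3%, 38.5% and 12.2%, and for Sst 1.79%, 2.78%, 23.1% and 2.91%. Sst was the only one of these 6 with no overlap between genotypes (exact permutation p = 0.33, adjusted p = 1 over 8 hormones), and its value in APC-KO replicate 1 was 3 of 13 cells.

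**Figure D5:**
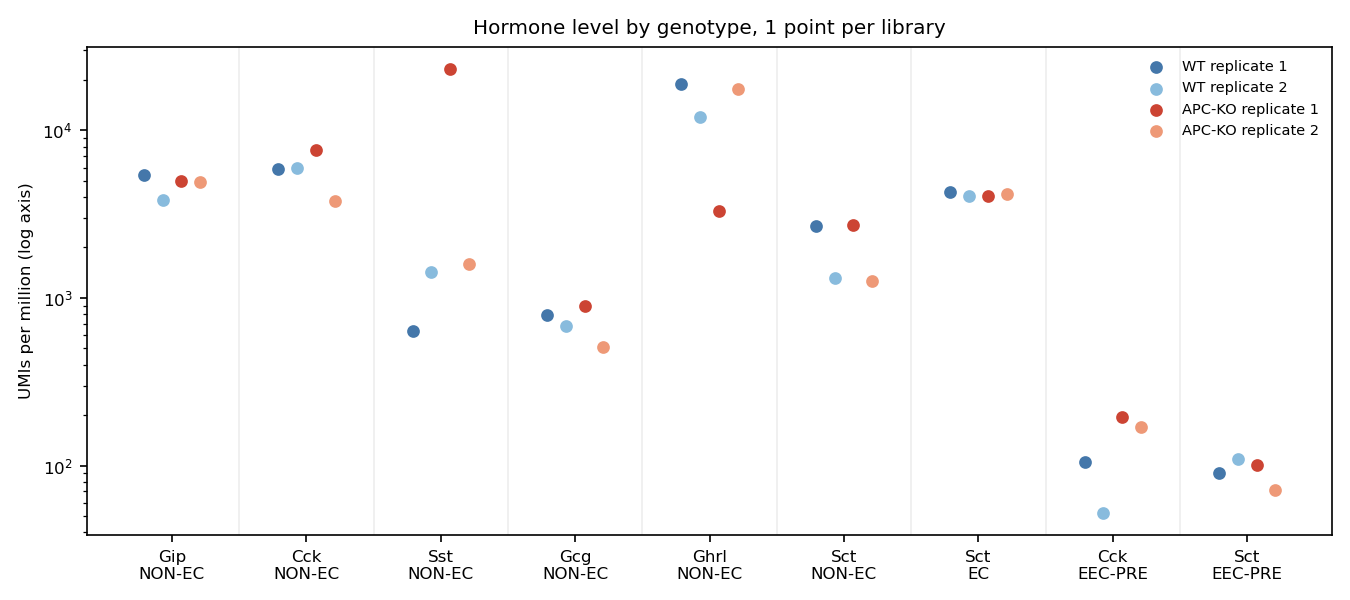
Level of the hormones in the types named below the axis, in CPM on a log axis, with 1 point per library and WT in blue and APC-KO in red and orange. Sct in EC stays between 4038 and 4267 in all libraries, while Sst and Ghrl in NON-EC differ mainly through the 13 cells of APC-KO replicate 1.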

How the data were processed

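Single-cell RNA libraries were made with 10x 3′ chemistry from TOM+ duodenal crypt cells of WT and APC-KO mice, 2 libraries each. Per the submitters' processing notes, Cell Ranger 3.0.2, STAR and mm10 were used. The deposited matrices hold raw UMI counts per gene and barcode. The authors' deposited metadata give the kept cells with their library and cell type, and a percent of counts per cell that was not used in a test. How the authors treated doublets is not given in the sources used here. Kept cells held 24677647, 21003179, 3009636 and 27285079 UMIs (medians 4841.5, 5354, 8370 and 3973 per cell).

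UMIs were summed by library and cell type (Python 3.11.15, numpy 2.4.6, pandas 2.3.3, scipy 1.17.1). Genotypes were tested on these sums with edgeR 4.0.16 in R 4.3.3 (TMM scaling, filterByExpr, quasi-likelihood test, Benjamini-Hochberg adjustment over all genes tested, threshold 0.05). The SE given with a log2 fold change is its absolute value divided by the square root of the F statistic. Cells were thinned to 2000 UMIs with a fixed seed, and 5 UMIs made a cell positive. The procedure was tested on simulated data. The alternatives were DESeq2 1.42.0, its size factors, no filter on low counts, a replicate block, leaving out each library, cells with at least 2000 UMIs, thinned cells, hormones left out of library sizes, free RNA subtracted at 5%, and positivity at 1 or 10 UMIs. Sums without the top cell of each library and a crossed block were added after the data were seen.

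Named genes were the 8 hormones, genes of endocrine lists that passed the threshold, and up to 3 genes per hormone with the highest r over WT NON-EC cells (r at least 0.3, a UMI in at least 5% of cells, positive in each WT library and APC-KO replicate 2). The members and the lists were chosen with earlier results of these data known. Promoter sequences and the positions of their windows came from RefSeq (GRCm38.p6), and gene positions from GENCODE (GRCm38).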

Additional observations from a re-analysis of the deposited data

How the results depend on the processing

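The mean share of UMIs held by NON-EC (Gip, Cck, Sst, Gcg, Ghrl and Pyy) or by EC (Sct) moved by less than 1 SD of the libraries when free RNA was subtracted. Leaving out 1 of 4 libraries cannot move their mean by 1 SD, so that setting was no check of these shares. The number of genes past an adjusted p of 0.05 moved with the setting. It was 0 in the endocrine sum, 0 in EC, 9 in NON-EC, 43 in EEC-PRE and 0 over all cells. In that order DESeq2 called 24, 6, 3, 13 and 23, and no filter beyond 1 count gave 309, 174, 141, 98 and 21. Thinned cells gave 7, 4, 5 and 15 in the first 4, cells with at least 2000 UMIs 5 in NON-EC and 13 in EEC-PRE, subtraction of free RNA 1 and 22, removal of the top cell 3 and 25, and DESeq2 size factors 16 in EEC-PRE. Leaving out 1 library gave 5 to 934, 0 to 405, 13 to 344, 0 to 285 and 0 to 483. Same-numbered libraries did not deviate together (r of -0.0629, -0.0513, -0.0423, -0.0701 and -0.246), and the replicate block gave 16 in the endocrine sum, 3 in NON-EC and 4 over all cells; the crossed block gave 1 over all cells. Cck in EEC-PRE also missed the threshold with DESeq2 size factors (1.28, adjusted p = 0.0699), in cells with at least 2000 UMIs (1.33, 0.0564), in thinned cells (1.22, 0.104) and after subtraction of free RNA (1.34, 0.0628), all by edgeR. It passed with no filter (0.00489), with the replicate block (0.0356) and when APC-KO replicate 1 (0.000217) or APC-KO replicate 2 (0.0342) was left out. Small log2 fold changes changed sign. In NON-EC, Cck was 0.000745 by DESeq2, 0.0058 in thinned cells and 0.034 without the top cell, Sct 0.0066 with DESeq2 size factors, 0.0245 by DESeq2 and 0.0239 with the replicate block, and Gcg 0.092 and Gip -0.052 in thinned cells. Thinned cells gave -0.092 for Sct in EC and 0.0104 for Sct in EEC-PRE. Leaving out 1 library gave, in NON-EC, -0.55 to 0.34 for Cck, -0.44 to 0.26 for Gcg, -2.26 to 0.30 for Ghrl, -0.12 to 0.43 for Gip and -0.59 to 0.63 for Sct, with -0.018 to 0.13 for Sct in EC and -0.32 to 0.20 in EEC-PRE, and for Pyy -5.86 to 3.17 in EC and -1.39 to 2.12 in the endocrine sum. Mean WT co-expression moved with the limit for a positive cell. At 1 UMI, at 10 UMIs and in cells not thinned, Gip cells with Sct (78.6%) were 92.0%, 49.2% and 87.2%, Gip cells with Cck (45.1%) 72.6%, 31.4% and 60.9%, Cck cells with Sct (59.0%) 90.8%, 32.8% and 78.6%, and Ghrl cells with Sct (11.9%) 58.3%, 1.70% and 26.2%. At 1 UMI, Gip cells with Ghrl were 18.1% and Ghrl cells with Gip 5.29%. Differences in the share of positive cells (APC-KO minus WT, percentage points) changed sign for Gcg at 1 UMI (-1.93) and in cells not thinned (-0.116), and for Sct at 1 UMI (-2.67) and 10 UMIs (-0.154). Leaving out 1 library gave -2.49 to 14.5 for Cck, -1.52 to 2.68 for Gcg, -4.30 to 0.802 for Gip and -13.1 to 13.2 for Sct. The cause of these changes was not tested.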

Other observations

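Single cells named as other types held hormone UMIs at the level of NON-EC cells. In WT replicate 1, 1 cell named ISC held 198 Cck, 71 Gcg and 20 Sct UMIs, the combination described above for NON-EC, and among its 7388 UMIs were 0 of Chga, 2 of Neurod1 and 3 of Cpe. In the same library 1 EC cell held 135 Sst, 50 Chga and 21 Sct UMIs, and 1 ENTERO-PRO cell held 153 Ghrl UMIs. In APC-KO replicate 2, 1 cell named ISC held 151 Sct UMIs, and PANETH cells held 29 and 38 Gip UMIs. These cells were chosen after their values were seen, and whether they are doublets was not tested.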
